A study of Mus musculus with 15 samples.

Results

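The 9 myokine genes followed here were Il15, Il6, Fndc5, Fgf21, Apln, Metrnl, Bdnf, Lif and Ostn, taken by symbol from a count table of 22798 genes. All 9 had a row, and 7 passed the expression filter of the test (Il6 and Fgf21 did not). The libraries were made from RNA of skeletal muscle, and every mouse was a C57BL/6 animal of 12 months that ate a normal diet and was fasted overnight. There were 6 libraries from mice labelled exercise, 3 libraries labelled CD47-KO and 6 libraries from sedentary wild-type mice. CD47-KO stands for mice without CD47, a receptor of thrombospondin 1. Which muscle was taken, how the mice were exercised, when they were last exercised and the genotype of the exercised mice are not given in the sources used here, nor whether each library came from its own animal. P-values therefore measure the spread between these libraries, which may be technical.

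Myokines are proteins that muscle fibres and the cells between them release, and many of them are known for a rise with contraction. Some act as cytokines through receptors that signal by JAK and STAT proteins (Il15, Il6, Lif). Others are metabolic hormones (Fgf21, the irisin precursor Fndc5, Metrnl), a vascular peptide (Apln), a neurotrophin (Bdnf) or a ligand of the natriuretic peptide clearance receptor (Ostn, also called musclin).

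Total counts ran from 54851831 to 77628546 in exercise, from 76005277 to 84364189 in CD47-KO and from 50928458 to 70774311 in sedentary libraries. The summed level of 9 fibre genes was 127081.7 to 219054.0 CPM in exercise, 97254.4 to 125597.1 CPM in CD47-KO and 125024.6 to 198807.4 CPM in sedentary libraries (CPM, the count relative to the scaled library size). In CD47-KO 3 of the 9 were called lower in both comparisons and 0 were called higher. Of all genes, 8.75% were called lower and 11.9% higher against sedentary, and 8.34% and 12.2% against exercise. The log2 fold changes against sedentary were -0.98 (SE 0.21) for Acta1, -0.92 (SE 0.26) for Ckm and -0.88 (SE 0.22) for Des. Mitochondrial genes took 4.49 to 12.5% of counts in exercise, 18.1 to 19.2% in CD47-KO, and 4.77 to 9.21% in sedentary libraries 1 to 5 with 18.2% in sedentary library 6. Cd47 itself lay at 11.5 to 12.1 CPM in the libraries labelled CD47-KO, at 10.8 to 15.7 CPM in exercise and at 11.4 to 16.4 CPM in sedentary libraries, so CD47-KO is used here as a label. Exercise and sedentary libraries numbered 1 to 3 stood apart from those numbered 4 to 6, and these sets of numbers are given separately where the values differ. No label says what the sets are, or which of them the CD47-KO libraries belong with. In CD47-KO, fold changes followed the GC content of transcripts (Spearman correlation of -0.651 against sedentary, over 10396 expressed genes), so values with a correction for it (GC offset) stand beside those as tested. With the offset 0 of the 3 fibre genes kept their call in either comparison. Against sedentary they had -0.51 (Acta1), -0.58 (Ckm) and -0.45 (Des), with adjusted p-values of 0.146, 0.240 and 0.317 by edgeR. The myosin Myh1 was then called higher against sedentary (1.28, adjusted p = 0.0320). The part of the mitochondrial share and of the fibre genes in the CD47-KO values was not tested.

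The members spanned the range from abundant to nearly unread. Promoters are shown for the ends of that range: Fndc5, among the most abundant members, and Il6 and Fgf21, at or near 0 counts. Each is the 250 bases before the transcript start in RefSeq, build GRCm38.p6, read along the gene's own strand. Capitals mark the letters of the motifs searched on both strands: TATAAA (the TATA box, in 12.4% of 32851 promoters), TGACG (the core of the cyclic AMP response element, 17.8%), TGANTCA (AP-1, 6.75%), CAGCTG (the E-box of myogenic factors, 13%), GGGCGG (the GC box, 32.7%) and TGATGCAA (bound by C/EBP and ATF factors, 0.791%).
Fndc5, chr4:129136749-129136998, plus strand: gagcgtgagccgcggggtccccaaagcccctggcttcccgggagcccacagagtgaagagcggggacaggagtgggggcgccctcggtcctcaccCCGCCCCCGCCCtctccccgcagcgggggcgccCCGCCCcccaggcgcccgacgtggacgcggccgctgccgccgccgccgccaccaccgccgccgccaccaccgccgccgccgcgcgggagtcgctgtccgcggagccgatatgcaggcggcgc
Il6, chr5:30012864-30013113, plus strand: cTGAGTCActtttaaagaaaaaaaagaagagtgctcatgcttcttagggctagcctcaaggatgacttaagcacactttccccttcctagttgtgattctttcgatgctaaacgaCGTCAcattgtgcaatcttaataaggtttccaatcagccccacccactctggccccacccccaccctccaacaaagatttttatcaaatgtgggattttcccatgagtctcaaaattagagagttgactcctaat
Fgf21, chr7:45615491-45615740, minus strand: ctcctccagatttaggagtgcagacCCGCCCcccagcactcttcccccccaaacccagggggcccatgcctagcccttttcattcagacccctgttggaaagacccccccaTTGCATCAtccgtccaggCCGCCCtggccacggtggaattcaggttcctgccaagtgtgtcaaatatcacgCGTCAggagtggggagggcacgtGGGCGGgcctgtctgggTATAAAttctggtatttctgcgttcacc
The Fndc5 window was 80.8% G and C, with 3 GC boxes and no match to the other motifs. The Il6 window was 42.8% G and C and held 1 AP-1 match and 1 TGACG match. The Fgf21 window held a TATA box, 3 GC boxes, 1 TGACG match and TGATGCAA. These matches describe letters and are no test of binding.

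Levels between genes were compared per kilobase of exon. In sedentary muscle Ostn led with 37.6 ± 26.2 CPM per kilobase and Fndc5 followed with 25.3 ± 12.3 (SD, n = 6), and their libraries overlapped. Every library of these genes lay above every library of the next, Metrnl, with 1.87 ± 1.01 CPM per kilobase. Il15 had 0.908 ± 0.399 and overlapped with Metrnl. Below a gap came Apln with 0.262 ± 0.151, and below another Bdnf with 0.0581 ± 0.0315 CPM per kilobase. Bdnf, Fgf21, Lif and Il6 overlapped from neighbour to neighbour in this order. In exercise and in CD47-KO libraries the mean of Il15 stood above that of Metrnl, at 2.48 against 1.61 CPM per kilobase in exercise and at 1.60 against 1.05 in CD47-KO, again with overlap.

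**Figure D1:**
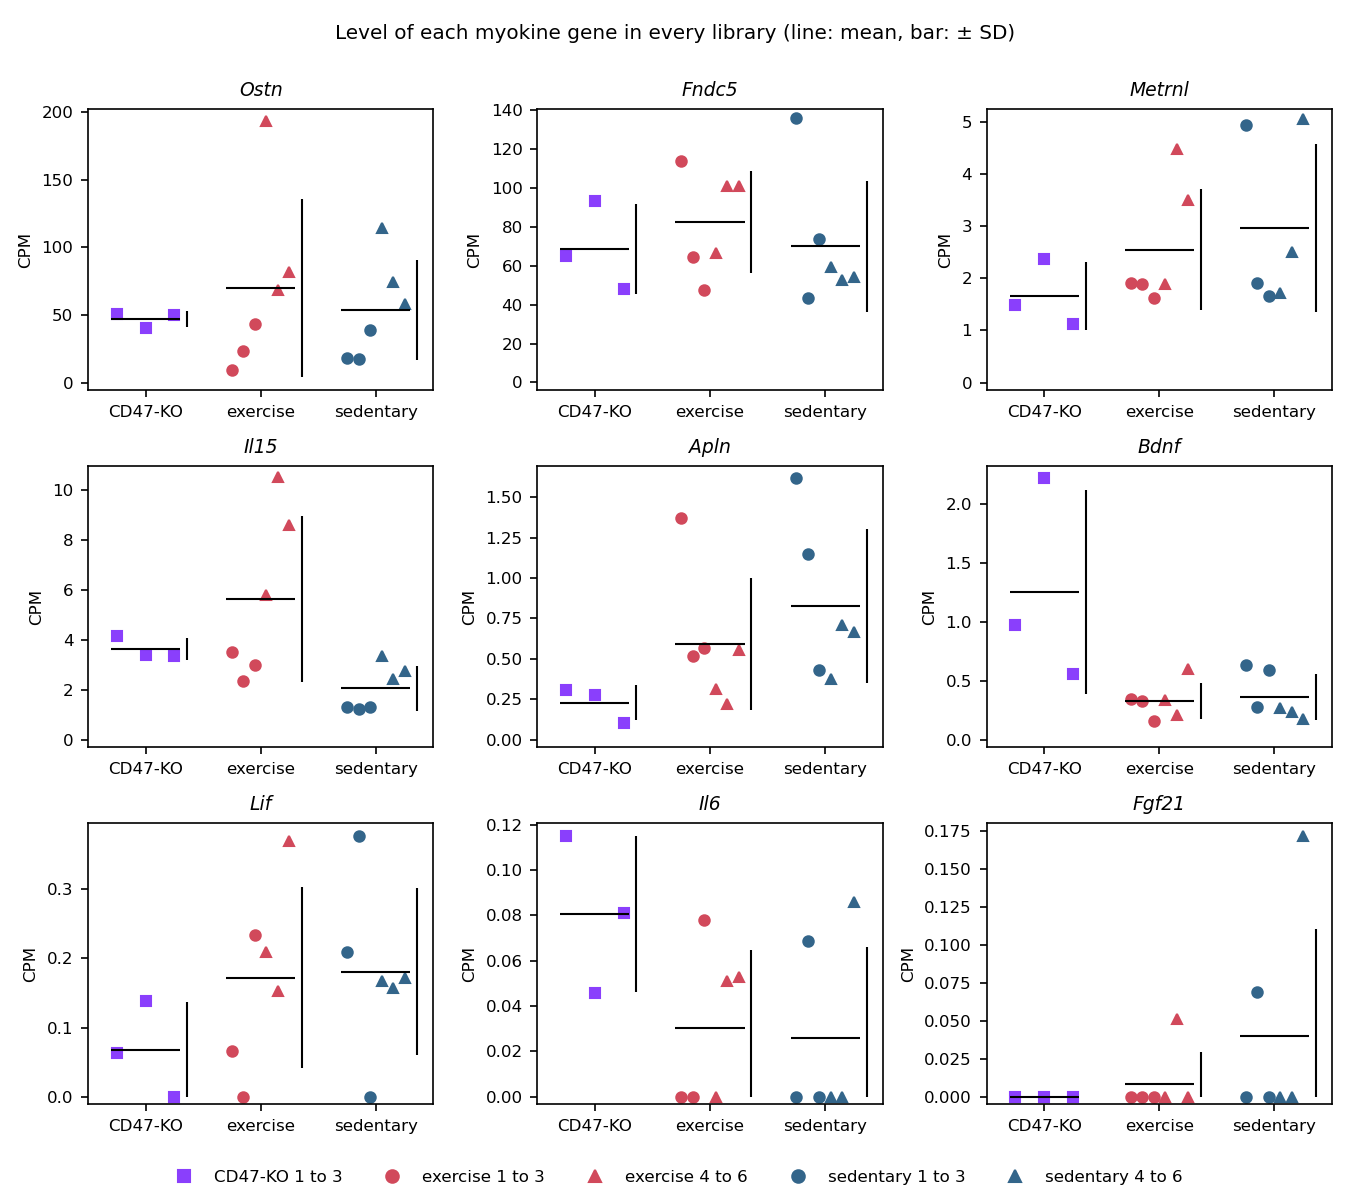
Level in CPM of each of the 9 genes (panels, each with its own linear axis) in 3 CD47-KO, 6 exercise and 6 sedentary libraries, with the mean as a line and ± SD as a bar that stops at 0 where it would pass below. Il15 reaches 10.5 CPM in exercise against 3.34 CPM in sedentary libraries, Bdnf 2.22 CPM in CD47-KO, and Il6 and Fgf21 stay at or below 0.172 CPM in every library.

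Il15, a cytokine that sustains natural killer and memory T cells and is made by muscle fibres, was the member that stood out in exercised muscle (chromosome 8, 82331632 to 82403222, GRCm38). Exercise libraries 1 to 3 had 213, 122 and 154 counts, or 2.33 to 3.50 CPM with a mean of 2.94 ± 0.591, against 100, 71 and 90 counts, or 1.31, 1.22 and 1.30 CPM, in sedentary libraries 1 to 3. Exercise libraries 4 to 6 had 5.80, 10.5 and 8.59 CPM, against 3.34, 2.42 and 2.73 CPM in sedentary libraries 4 to 6. Within each set of numbers the groups did not overlap, and over both sets 4 of the 6 exercise libraries lay above every sedentary library. Of all genes tested, 0.701% had exercise above sedentary without overlap within both sets.

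The mean was 5.61 ± 3.30 CPM in exercise and 2.05 ± 0.902 CPM in sedentary libraries (SD, n = 6 each), a log2 fold change of 1.45 (SE 0.38). By edgeR's quasi-likelihood test over 17975 genes, Il15 had an unadjusted p of 0.00138 and an adjusted p of 1.00, so it was not called. Its p was the 16th smallest. Blocking on the number set, the estimate was 1.37 (SE 0.19) and its p the smallest of 15571 genes, with an adjusted p of 0.0946 from the 12 exercise and sedentary libraries. With the CD47-KO libraries added to the estimate of spread, an alternative chosen after the data were seen, it was 1.38 (SE 0.18) with an adjusted p of 0.0184, the 1 gene called (0.00556% of those tested). Within numbers 1 to 3 the log2 fold change was 1.19 (SE 0.23) and within numbers 4 to 6 it was 1.53 (SE 0.29), with adjusted p-values of 0.544 and 0.651. The difference between these effects was -0.33 (SE 0.37), with an adjusted p of 0.973.

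Il15 also differed between the sets themselves. Numbers 4 to 6 were higher than numbers 1 to 3 by a log2 fold change of 1.32 (SE 0.19, adjusted p = 3.48e-04 by edgeR with group in the model), where 31.5% of all genes were called. The CD47-KO libraries had 4.13, 3.38 and 3.36 CPM, just above the sedentary maximum of 3.34 CPM. They thus did not overlap with sedentary, as was so for 15.7% of genes in this direction, and lay inside the exercise range of 2.33 to 10.5 CPM. The log2 fold change of CD47-KO was 0.82 (SE 0.44) against sedentary (adjusted p = 0.209) and -0.63 (SE 0.46) against exercise (adjusted p = 0.371). Set against sedentary numbers 1 to 3 alone it was 1.58 (SE 0.23, adjusted p = 8.71e-04), in a fit of the 9 libraries numbered 1 to 3 that called Il15. That fit called 5588 of 16932 genes for CD47-KO against sedentary.

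**Figure D2:**
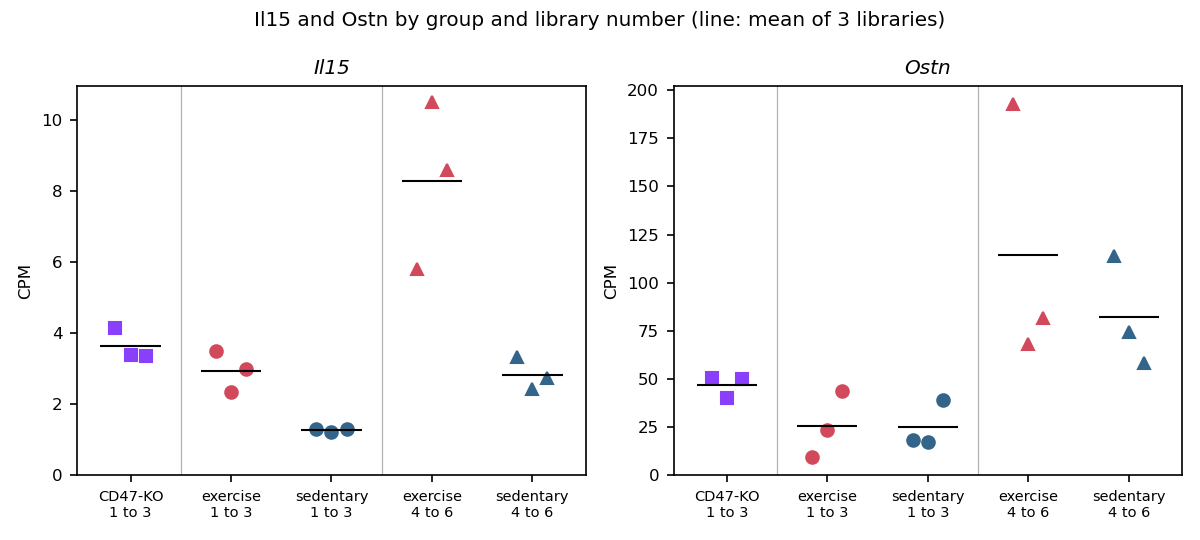
Level in CPM (linear axes from 0) of Il15 and Ostn in single libraries, split by group and by library number, with the mean of 3 libraries as a line. For Il15 the exercise points lie above the sedentary points in both sets of numbers, at 2.33 to 3.50 against 1.22 to 1.31 CPM and at 5.80 to 10.5 against 2.42 to 3.34 CPM, while for Ostn the sets differ and the groups overlap.

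Il15 acts mostly while bound to its receptor chain Il15ra, a gene named here after its values were seen. Il15ra had 9.18 ± 2.76 CPM in exercise, 8.71 ± 1.99 CPM in CD47-KO and 8.63 ± 2.57 CPM in sedentary libraries, with log2 fold changes of 0.09 (SE 0.26) for exercise and 0.01 (SE 0.31) for CD47-KO against sedentary (adjusted p = 1.00 and 0.982 by edgeR). Of 7 T and natural killer cell markers, 4 had a row, and their summed level was 0.197 to 1.06 CPM in exercise, 0.0465 to 0.229 CPM in CD47-KO and 0.262 to 1.41 CPM in sedentary libraries. Cd3g was at 0 in all exercise and CD47-KO libraries. Of 71 cell type markers tested, 0 were called for exercise against sedentary by edgeR, with 3 at an unadjusted p under 0.05 and 0 by DESeq2. The smallest p of the 3 belonged to the fast myosin Myh1, with 4972.1 ± 2045.4 CPM in exercise and 2163.6 ± 705 CPM in sedentary libraries (SD, n = 6 each), a log2 fold change of 1.20 (SE 0.29, unadjusted p = 8.52e-04, adjusted p = 1.00 by edgeR). That p was smaller than the one of Il15, and the part of fibre type in the Il15 values was not tested. The others were the Schwann cell marker S100b (-1.29, SE 0.48) and the tendon factor Scx (-0.85, SE 0.33). In bulk tissue, fewer cells of a type and less RNA per cell cannot be told apart.

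Ostn, a secreted peptide of fast glycolytic fibres and bone, varied most between libraries among the abundant members (chromosome 16, 27307489 to 27351212). Exercise libraries 1 to 3 had 9.15, 23.6 and 43.5 CPM, against 18.4, 17.1 and 38.9 CPM in sedentary libraries 1 to 3. Exercise libraries 4 to 6 had 193, 68.1 and 81.8 CPM, against 114, 74.4 and 58.2 CPM in sedentary libraries 4 to 6. Every library numbered 4 to 6 lay above every exercise or sedentary library numbered 1 to 3, and the groups overlapped within both sets. Between the sets the log2 fold change was 1.94 (SE 0.39, adjusted p = 0.00275). For exercise against sedentary it was 0.38 (SE 0.58, adjusted p = 1.00), or -0.25 without exercise library 4. CD47-KO libraries had 3949, 3491 and 4303 counts, or 40.0 to 50.4 CPM, above every sedentary library numbered 1 to 3 and below every one numbered 4 to 6, with -0.19 (SE 0.72, adjusted p = 0.890) against sedentary. With the GC offset that became -1.30 (SE 0.67, adjusted p = 0.266), where the longest Ostn transcript has a GC content of 40.3%, and against sedentary numbers 1 to 3 alone it was 0.99 (SE 0.49, adjusted p = 0.146). The direction of Ostn in CD47-KO thus differed between these fits. A fit with the replicate number as a block, given in the closing section, called it higher. That fit also compares CD47-KO directly only with libraries numbered 1 to 3.

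Fndc5, whose membrane protein is cut to release irisin, did not differ between exercised and sedentary muscle beyond the spread over all libraries (chromosome 4, 129136999 to 129144593). It ran from 47.5 to 114 CPM in exercise libraries with a median of 83.9, and from 43.5 to 136 CPM in sedentary libraries with a median of 56.8. The log2 fold change was 0.24 (SE 0.29, adjusted p = 1.00). Numbers 4 to 6 gave 66.7, 101 and 101 CPM in exercise, against 59.2, 52.9 and 54.4 CPM in sedentary libraries. There the log2 fold change was 0.68 (SE 0.22, adjusted p = 0.872), while within numbers 1 to 3 it was -0.19 (SE 0.44). The difference between the sets did not pass (-0.85, SE 0.55, adjusted p = 0.964). The highest value, 136 CPM, came from sedentary library 1, which also held the highest levels of the slow and fast oxidative myosins Myh7 (9789.6 CPM) and Myh2 (7641.6 CPM), and the part of fibre type in this value was not tested. Without that library the exercise estimate was 0.53. CD47-KO libraries had 64.9, 93.3 and 47.9 CPM, inside the sedentary range, with -0.03 (SE 0.35, adjusted p = 0.969).

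Metrnl, a secreted protein that acts on adipose tissue and on immune cells, showed no separation of groups (chromosome 11, 121701544 to 121716306). It ran from 1.62 to 4.49 CPM in exercise with a median of 1.91 and from 1.67 to 5.06 CPM in sedentary libraries with a median of 2.20. The log2 fold change was -0.21 (SE 0.36, adjusted p = 1.00). CD47-KO libraries had 1.48, 2.38 and 1.12 CPM, and 2 of the 3 lay below every sedentary library. The log2 fold change of -0.84 (SE 0.46, adjusted p = 0.221) did not pass, and was -0.29 with the GC offset. The highest sedentary values, 4.95 CPM in library 1 and 5.06 CPM in library 6, came from the sedentary libraries with the highest summed level of 8 endothelial markers (654 and 901 CPM), whereas exercise library 1 had a marker sum of 604 CPM with 1.91 CPM of Metrnl and exercise library 5 a sum of 439 CPM with 4.49 CPM of Metrnl. The part of those cells in Metrnl was not tested.

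Apln, the ligand of the apelin receptor of vessels and muscle, was low in the CD47-KO libraries (chromosome X, 48025146 to 48034853). These had 0.306, 0.275 and 0.105 CPM, or 24, 24 and 9 counts. Exercise libraries ran from 0.217 to 1.37 CPM with a median of 0.535, and sedentary libraries from 0.377 to 1.62 CPM with a median of 0.687. CD47-KO lay below sedentary without overlap, as 10.3% of genes did, and overlapped with exercise. The log2 fold change against sedentary was -1.85 (SE 0.66) and missed the threshold by edgeR (adjusted p = 0.0563). It passed with DESeq2 (-1.84, adjusted p = 0.0173) and against sedentary numbers 1 to 3 alone (-2.15, adjusted p = 0.0290), and did not with the GC offset (-1.53, adjusted p = 0.136). Of all genes, DESeq2 called 4850 of 17975 and the fit of numbers 1 to 3 called 5588 of 16932. Endothelial cells are a known source of Apln, and the summed level of the same endothelial markers was 391 to 521 CPM in CD47-KO, 340 to 604 CPM in exercise and 312 to 901 CPM in sedentary libraries. Of 8 markers tested, 1 was lower and 0 higher in CD47-KO than in sedentary by edgeR. Of all genes, 8.75% were called lower and 11.9% higher there. The 1 marker lost its call with the GC offset (-0.59, adjusted p = 0.215). The part of endothelial cells in the Apln values was not tested. In CD47-KO against exercise Apln was not called by edgeR (-1.36, SE 0.64, adjusted p = 0.152). Nor was it called with the GC offset (-1.04, adjusted p = 0.325) or against exercise numbers 1 to 3 alone (-1.74, adjusted p = 0.0647). The replicate block of the closing section did call it. For exercise against sedentary Apln had -0.49 (SE 0.49, adjusted p = 1.00).

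Bdnf, a neurotrophin that muscle makes in small amounts, was the 1 member of 7 tested called higher in CD47-KO by edgeR (chromosome 2, 109674700 to 109727007). In that fit of all 15 libraries, 11.9% of all genes were called higher against sedentary and 12.2% against exercise. CD47-KO libraries had 0.970, 2.22 and 0.558 CPM, or 76, 194 and 48 counts. Exercise libraries ran from 0.156 to 0.594 CPM with a median of 0.332, and sedentary libraries from 0.172 to 0.628 CPM with a median of 0.270. CD47-KO libraries 1 and 2 lay above every exercise and sedentary library and CD47-KO library 3 lay inside both ranges. The mean was 1.25 ± 0.867 CPM (SD, n = 3) in CD47-KO, against 0.327 ± 0.153 CPM in exercise and 0.361 ± 0.196 CPM in sedentary libraries (SD, n = 6 each). The log2 fold change was 1.78 (SE 0.54, adjusted p = 0.0278) against sedentary and 1.92 (SE 0.54, adjusted p = 0.0181) against exercise by edgeR.

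Those calls did not hold without 1 library, nor with the GC offset. Against sedentary numbers 1 to 3 alone Bdnf was not called either (1.39, SE 0.58, adjusted p = 0.0937). Against exercise numbers 1 to 3 Bdnf was called (2.26, SE 0.61, adjusted p = 0.0183), where 5472 of 16932 genes were called. Without CD47-KO library 2 the log2 fold change was 1.02 against sedentary (adjusted p = 0.306) and 1.17 against exercise (adjusted p = 0.239). The longest Bdnf transcript is 40.9% G and C, and expressed genes of 39 to 42% had a median log2 fold change of 1.16 in CD47-KO against sedentary. With the GC offset Bdnf had 0.54 (SE 0.60, adjusted p = 0.671) and 0.70 (SE 0.59, adjusted p = 0.553). An antisense gene overlaps Bdnf in the annotation, and since the strand setting of the counting is not given, reads from both cannot be told apart. The same holds for Ostn. For exercise against sedentary Bdnf had -0.15 (SE 0.47, adjusted p = 1.00).

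Lif, Il6 and Fgf21, the cytokines and the hormone that are best known for acute induction, were near the limit of what these libraries read. Low values in the table were often 4, 8 or 12, with a share of 32.1 to 50.2% among values of 1 to 15, and what 1 count stands for is not given. Lif, a cytokine of muscle repair on chromosome 11, had 0 to 28 counts in exercise, 0 to 12 in CD47-KO and 0 to 22 in sedentary libraries. Its log2 fold change for exercise against sedentary was -0.06 (SE 1.00) and was not called. For CD47-KO against sedentary it was -1.40 (SE 1.31, adjusted p = 0.501 by edgeR), or -1.07 with the GC offset (adjusted p = 0.703). Il6, which contracting muscle releases into blood, had 9, 4 and 7 counts in CD47-KO libraries 1 to 3, with 12 counts over the 6 exercise and 8 over the 6 sedentary libraries. It was at 0 in 0 of 3 CD47-KO, 3 of 6 exercise and 4 of 6 sedentary libraries. The mean of 0.0807 CPM in CD47-KO stood against 0.0303 CPM in exercise (exact two-sided permutation test, p = 0.0833) and 0.0258 CPM in sedentary (p = 0.107 by the same exact test), where 0.0119 is the smallest p that 84 arrangements allow. Exercise against sedentary gave an exact permutation p of 0.924 for Il6.

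Fgf21, a fasting and stress hormone made mainly by liver, had 4 counts in exercise library 5, 4 and 8 counts in sedentary libraries 2 and 6, and 0 counts in the other 12 libraries, all CD47-KO libraries among them. A count of 0 allows a level of up to 0.0344 to 0.0646 CPM, depending on the library (3 counts, for counting error only). That limit takes each count as a separate read, which is not given, and would be higher if 1 read adds several counts. Il6 and Fgf21 both stayed below the expression filter of the fit. For Fgf21 the exact permutation p was 0.455 for exercise and 0.750 for CD47-KO, each against sedentary.

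Counted over the 7 members tested, exercise against sedentary called 0 by edgeR, with 1 (Il15) at an unadjusted p under 0.05 and 0 by DESeq2. Of all genes, 0.00% were called and 665 (3.70%) had an unadjusted p under 0.05. CD47-KO against sedentary called 1 of 7 (Bdnf), where 20.7% of all genes were called (11.9% higher and 8.75% lower), with 2 by DESeq2. CD47-KO against exercise called 1 of 7 (Bdnf), where 20.6% of all genes were called (12.2% higher and 8.34% lower). Shares this near to the background are no result about the members. With the GC offset the count was 0 of 7 in each comparison, where 8.92% of genes were called for CD47-KO against sedentary (4.29% higher and 4.63% lower) and 9.06% against exercise (4.50% higher and 4.56% lower). With that offset 1 member stood at an unadjusted p under 0.05 in each comparison: Il15 for exercise, Apln for CD47-KO against sedentary and Ostn for CD47-KO against exercise (-1.83, SE 0.69, adjusted p = 0.115). The 3 comparisons share libraries, so their values are not independent. The difference of the exercise effect between the sets of numbers was called for 0 of 7 members and 0.00% of genes by edgeR, with 0 members and 713 genes at an unadjusted p under 0.05.

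**Figure D3:**
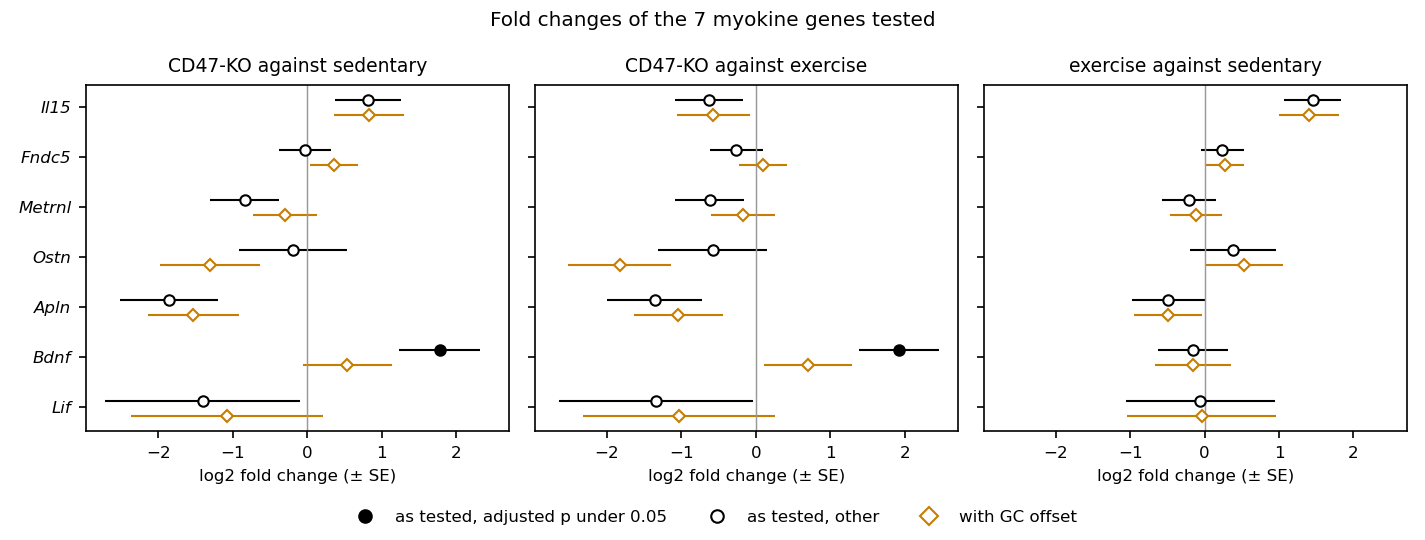
Log2 fold change ± SE of the 7 tested genes in 3 comparisons (panels), as tested by edgeR (circles, filled where adjusted p was under 0.05) and with a GC offset (diamonds). Il15 lies at 1.45 for exercise, the filled points are those of Bdnf at 1.78 and 1.92, and the diamonds of Bdnf and Ostn lie more than 1 log2 unit below their circles in CD47-KO.

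Of 17 receptors and receptor chains of these ligands, 15 were tested. For exercise against sedentary 0 were called by edgeR, with 1 at an unadjusted p under 0.05 and 0 by DESeq2. Their median log2 fold change was -0.03, as over all genes. The smallest p-values belonged to the shared cytokine chain Il2rg (-0.74, SE 0.32), the clearance receptor Npr3, which binds musclin (-0.85, SE 0.53), and Kit (-0.69, SE 0.55), all with an adjusted p of 1.00. In CD47-KO against sedentary, 3 receptors were higher and 1 lower (26.7% of 15, against 20.7% of all genes). Aplnr, the apelin receptor, fell to 0.575 ± 0.351 CPM in CD47-KO, against 2.96 ± 1.11 CPM in sedentary libraries (-2.35, SE 0.43, adjusted p = 0.00125, and -2.23 with the GC offset, adjusted p = 0.00522). The integrin chain Itgav, part of a proposed irisin receptor, rose to 29.1 ± 1.68 CPM in CD47-KO, against 6.37 ± 4.19 CPM in sedentary libraries (2.19, SE 0.50, adjusted p = 0.00529, and 1.54 with the GC offset, adjusted p = 0.0476). Against exercise Itgav lost its call with the offset (1.18, adjusted p = 0.128). The integrin chain Itgb5, also among these receptors, went the other way, with -0.56 (SE 0.22, adjusted p = 0.0839 by edgeR) against sedentary. It was called lower against exercise (-0.66, SE 0.22, adjusted p = 0.0459), but not with the offset (-0.20, adjusted p = 0.718). Fgfr1, the signalling receptor of Fgf21, rose by 0.52 (SE 0.15, adjusted p = 0.0249), or 0.95 with the GC offset. Lifr, the receptor chain of Lif, was called as well at 1.57 (SE 0.47, adjusted p = 0.0263), but not with the offset (1.02, adjusted p = 0.181). Against exercise, 4 receptors were higher and 2 lower (40.0% of 15, against 20.6% of all genes), with -2.01 (SE 0.42) for Aplnr, 1.92 (SE 0.47) for Lifr and 2.42 (SE 0.61) for Npr3. With the offset Lifr (1.35, adjusted p = 0.0706) and Npr3 (1.78, adjusted p = 0.0809) lost their calls and 2 of the 6 kept them.

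Of 41 other factors that muscle secretes, 35 were tested. For exercise against sedentary 0 were called by edgeR, 0 stood at an unadjusted p under 0.05 and DESeq2 called 0, with a median log2 fold change of -0.18 against -0.03 over all genes. The smallest p-values belonged to the activin chain Inhba (-1.77, SE 0.84), the follistatin-like Fstl3 (-0.49, SE 0.24) and the chemokine Cxcl10 (1.41, SE 0.82). In CD47-KO against sedentary, 3 were higher and 2 lower (14.3%, against 20.7% of all genes). Nampt, an NAD-making enzyme that is also secreted, had 158 ± 30.8 CPM in CD47-KO, against 66.2 ± 13.5 CPM in sedentary libraries (1.25, SE 0.19, adjusted p = 3.69e-04). The matrix proteoglycan Dcn had 1.39 (SE 0.26), the neurotrophin Ntf5 -1.02 (SE 0.27), the growth inhibitor myostatin (Mstn) 1.60 (SE 0.44) and Cxcl12 -1.11 (SE 0.32). With the GC offset Nampt, Dcn and Mstn had 0.03, -0.31 and 0.10, and 1 of the 5 kept its call (Cxcl12). Against exercise 3 were higher and 2 lower (14.3%, against 20.6% of all genes), with 1.05 (SE 0.19) for Nampt, 1.29 (SE 0.26) for Dcn and -1.28 (SE 0.27) for Ntf5, and 0 kept their call with the offset.

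Regulators of myokine genes and genes of their signalling numbered 36, all tested. For exercise against sedentary 0 were called by edgeR, with 1 at an unadjusted p under 0.05 and 0 by DESeq2. The stress pseudokinase Trib3 had -1.02 (SE 0.40), the cytokine feedback inhibitor Socs3 0.96 (SE 0.46) and the stress factor Atf5 -0.51 (SE 0.27). In CD47-KO 5 were higher and 1 lower against sedentary (16.7%, against 20.7% of all genes), and the same counts held against exercise (20.6% of all genes). The hypoxia factor Hif1a had 20.6 ± 3.68 CPM in CD47-KO, against 6.48 ± 1.43 CPM in sedentary libraries (1.67, SE 0.22, adjusted p = 1.19e-04). Adam10, a protease that sheds membrane proteins, had 2.06 (SE 0.35, adjusted p = 7.42e-04), and Ppargc1a, the coactivator that induces Fndc5 in muscle, had 1.15 (SE 0.26, adjusted p = 0.00563). With the GC offset these values were 0.62, 1.17 and 0.14, and Adam10 was the 1 of the 6 called genes to keep its call, while the offset called 4 of 35 as higher and 0 as lower, where it called 4.29% of all genes higher and 4.63% lower. Against exercise Hif1a had 1.68 (SE 0.22), Adam10 2.23 (SE 0.35) and Ppargc1a 1.44 (SE 0.26). The offset changed these to 0.57, 1.27 and 0.36 (adjusted p = 0.0712, 0.0132 and 0.500 by edgeR). Of the 6 genes called against exercise, 2 kept their call, Adam10 among them. There the offset called 3 of 35 as higher and 0 as lower, where it called 4.50% of all genes higher and 4.56% lower.

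**Figure D4:**
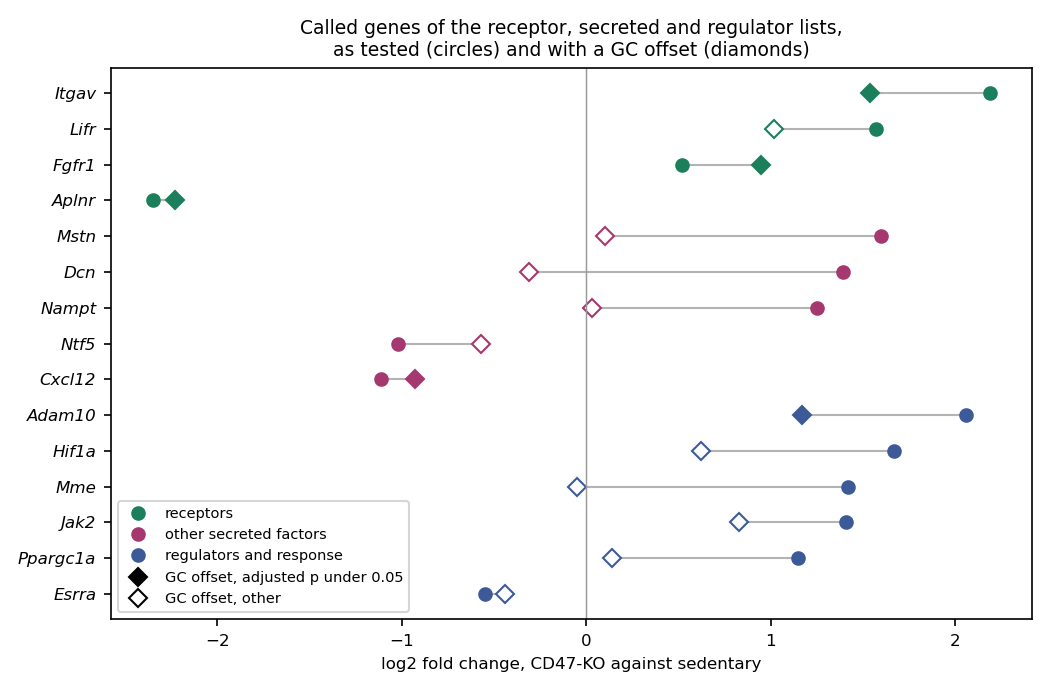
The 15 genes of the receptor, secreted factor and regulator lists called in CD47-KO against sedentary, with their log2 fold change as tested (circles) and with a GC offset (diamonds, filled where adjusted p was under 0.05). The offset leaves 5 of the 15 called, with Aplnr at -2.23, while Mstn, Nampt and Ppargc1a move to between 0.03 and 0.14.

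Likeness of pattern was measured as the root mean square difference of standardised log2 CPM over the 15 libraries, among 10428 expressed genes, for members with a mean log2 CPM of at least 0. Nearest to Il15 were Chchd3, of the mitochondrial contact site complex (0.438), and Gatb, of mitochondrial translation (0.449), where the median over genes was 1.33 to 1.41 for the members so compared. Nearest to Fndc5 were the triglyceride enzyme Dgat2 (0.368) and the fatty acid oxidation enzyme Hadha (0.421). Metrnl was nearest to Fxyd5 (0.453) and to Cd34, a marker of vascular and stromal progenitors (0.455). Ostn was nearest to Ccndbp1 (0.390) and to the proton pump subunit Atp6v1d (0.415). All libraries enter these values, so the sets of numbers and the groups both shape them. Over the same libraries the SD of log2 CPM was 0.51 for Fndc5, 0.66 for Metrnl, 0.90 for Il15 and 1.13 for Ostn, and 34.4%, 49.8%, 65.8% and 75.7% of genes had a smaller one.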

How the data were processed

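The authors deposited gene counts, 1 table of 22798 gene symbols by 15 libraries. Each column matched a sample. The tools named, per the submitters' processing notes, are HISAT2 2.0.1, HTSeq 0.6.1 and Trimmomatic 0.30, with the build GRCm38. The strand setting is not given in the sources used here. No 2 libraries of a group were copies (lowest chi-square per degree of freedom 72.0). Counts were filtered with filterByExpr (17975 genes, 7 of the 9 members), scaled by TMM, and tested in edgeR 4.0.16 (R 4.3.3) by a robust quasi-likelihood fit of all 15 libraries, with Benjamini-Hochberg adjustment over all genes and a threshold of 0.05. Standard errors come from the fold change and its F statistic. CPM use these scaled library sizes, with exon length and GC content from GENCODE for GRCm38 (22716 symbols found once). The GC offset is a lowess curve (span 0.3) of each library on the GC content of the longest transcript. Members below the filter were compared by exact permutation of libraries. Other tools were DESeq2 1.42.0 and the alternatives of the closing section. The edgeR fit, the number set block and the GC offset were also run on simulated counts. These had the same spread setting for every gene and, for the offset, a straight GC trend, unlike real data. The outcome is not given here, so that run is no support for the calls.

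Same-numbered exercise and sedentary libraries deviated together (correlations of 0.273 to 0.539 over genes). Pairs within a set with unlike numbers did so as well (median 0.366). These values thus do not tell a pairing by number apart from the sets of numbers, and no label gives a pairing. The replicate block changed no member's call for exercise against sedentary. Exercise libraries 4 to 6 are numbered so by title and 6 to 8 by description. The members and lists were chosen with earlier results of these data known. Named genes are all members, the 3 smallest p-values of each list and comparison, Cd47 and the nearest genes by pattern. Lifr against sedentary, Itgav against exercise, Itgb5, Mstn, Cxcl12, Il15ra, Cd3g, S100b, Scx, Acta1, Ckm, Des, Myh1, Myh7 and Myh2 were named after their values were seen. The sets of numbers were compared with each other after the data were seen.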

Additional observations from a re-analysis of the deposited data

Results flagged for a closer look

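Of 18 sets of 6 libraries (9 genes, exercise and sedentary), 3 had a library far from the others by the gap between it and its nearest neighbour, where chance gives about 1 in 20. Fndc5 had 136 CPM in sedentary library 1, with the next library at 74.0 CPM. Apln had 1.37 CPM in exercise library 1, with the next at 0.565 CPM. Fgf21 had 0.0511 CPM in exercise library 5, which is 4 counts, where the other exercise libraries were at 0. With all the others at 0 any count would be flagged, so the rate of 1 in 20 does not apply to Fgf21.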

How the results depend on the processing

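Il15 in exercise kept its direction in every alternative run, at 1.18 to 1.64 when 1 library was left out. Exercise called 0 members in every leave-out and 1 with the number set as a block over 15 libraries. CD47-KO called 0 to 2 members against sedentary and 0 to 1 against exercise when 1 library was left out. The share of all genes called is not given here for these fits, nor for the fit of only the groups compared. Over all 15 libraries it was 20.7% and 20.6%, so these counts are no result about the members. Against sedentary it called 2 with DESeq2 (Bdnf and Apln, with 4850 of 17975 genes), 2 with numbers 1 to 3 only (Il15 and Apln, with 5588 of 16932), 3 with the replicate block (Il15, Apln and Ostn, with 4842 of 17975), 0 with the GC offset and 0 with only the groups compared. Against exercise it called 2 with the replicate block (Apln and Ostn, with 4980 of 17975 genes) and 0 with the GC offset. With at least 1 CPM in 3 libraries it called 0 members (3857 of 13036 genes), where Bdnf was not tested. CD47-KO has only libraries numbered 1 to 3, so the replicate block compares it directly only with libraries of those numbers. That block and the fit of numbers 1 to 3 are thus not separate checks of CD47-KO. Against sedentary they gave 1.58 and 1.58 for Il15, 1.16 and 0.99 for Ostn, and -2.26 and -2.15 for Apln. The cause of the moves between fits was not tested.

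The replicate block gave 1.36 for Il15 in exercise (adjusted p = 0.269) and turned Lif to 0.34. For CD47-KO the numbers do not pair the libraries (correlations of -0.192 to 0.208 with sedentary and -0.0925 to 0.309 with exercise). There the block gave 0.01 for Fndc5 and 1.16 for Ostn (adjusted p = 0.0181) against sedentary, and 0.23 for Il15, 1.00 for Ostn (adjusted p = 0.0414) and -1.75 for Apln (adjusted p = 0.0220) against exercise. Against sedentary Il15 had 1.58 (adjusted p = 5.99e-04) and Apln -2.26 (adjusted p = 0.00677). Bdnf was not called under the block, at 1.49 against sedentary (adjusted p = 0.117) and 1.69 against exercise (adjusted p = 0.0959). In exercise, numbers 1 to 3 gave -0.19 for Fndc5, and numbers 4 to 6 gave 0.08 for Metrnl, 0.73 for Bdnf and 0.54 for Lif. In CD47-KO, numbers 1 to 3 gave 0.99 for Ostn against sedentary, and 0.39 for Il15 and 0.98 for Ostn against exercise. Fndc5 in CD47-KO against sedentary, at -0.03, became 0.00 with RLE size factors, 0.00 with DESeq2, 0.02 with no filter beyond 1 count, 0.02 with only the groups compared and 0.36 with the GC offset, and 0.10 against exercise with that offset. With CPM from total counts, 1 gene below the filter (Il6, CD47-KO against exercise, exact permutation p = 0.0476) passed an unadjusted 0.05.

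Leaving out 1 library turned the sign of Bdnf (-0.41 to 0.08), Lif (-0.45 to 0.29) and Ostn (-0.25 to 0.75) in exercise, of Fndc5 (-0.36 to 0.22) and Ostn (-0.42 to 0.23) in CD47-KO against sedentary, and of Ostn against exercise (-0.81 to 0.10). For the difference between the number sets it turned Apln (-0.28 to 0.76) and Ostn (-1.06 to 0.18). Depth limits the precision of Il6, Fgf21 and Lif, with 0 to 28 counts a library.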
